A study of Mus musculus with 9 samples.

Results

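The axon guidance ligands and receptors are a set of 54 genes named by symbol, made up of ephrins and their Eph receptors, semaphorins with plexins and neuropilins, netrin with Dcc and Unc5 receptors, slits with Robo receptors, the Celsr cadherins and the Nogo receptor. Of these, 53 were measured by a probe set that the array annotation gives to 1 gene symbol, out of 18193 genes in all, and each gene was read from its brightest probe set. Ephb2 was not analysed here. The cells were Neuro2a, a mouse neuroblastoma line derived from the neural crest, treated for 48 h with 1 of 3 siRNAs: siControl, siMyT1 against the zinc finger transcription factor Myt1, or siLSD1, whose target LSD1 is a histone demethylase encoded by Kdm1a. Each group had 3 arrays of total RNA from otherwise identically labelled cells, and the controls had received siRNA as well. The sources used here give neither the siRNA sequences nor whether replicates were separate cultures, and the spread behind the p-values may therefore be technical. The series links Myt1 to LSD1 in neural cells, and the comparisons set each knockdown against siControl and the knockdowns against each other.

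Axon guidance molecules steer growing axons by attraction and repulsion. Ephrins are membrane-anchored ligands that signal to Eph receptor tyrosine kinases on the touching cell. Semaphorins act through plexins, to which the secreted class binds with the help of neuropilins. Netrin attracts axons through Dcc and repels them through Unc5 receptors, and slits repel axons through Robo receptors. Many of these pairs also guide migrating neural crest cells, the lineage from which sympathetic neurons and neuroblastoma arise.

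Levels are in the intensity units of the deposited table, whose processing before deposit was not stated, and log2 differences are on the log2(value + 0.196) scale in those units, which understates changes of dim genes. Adjusted p-values are from limma, adjusted over all 18193 genes with a threshold of 0.05. Myt1 measured 4.60, 5.27 and 4.82 in siControl, 0.625, 0.882 and 0.474 in siMyT1 and 7.09, 7.59 and 6.16 in siLSD1. Kdm1a measured 28.1, 30.1 and 28.9 in siControl, 29.9, 30.1 and 32.8 in siMyT1 and 4.80, 4.05 and 4.63 in siLSD1, so each target was low in its own knockdown. The 10 measured of 12 neuroblastoma and sympathetic markers were all above 0.196 units and summed to between 151 and 228 units per array, while 6 of 10 fibroblast, 2 of 6 glial and 4 of 7 blood and endothelial markers lay below it, with sums of at most 6.12, 5.41 and 2.30 units. Log2 values correlated at 0.992 to 0.994 within groups and 0.986 to 0.992 between groups across genes. The library of siMyT1 replicate 2 had the lowest of these correlations and the highest median, 0.424 against 0.302 to 0.366 units on the other arrays. Without it, 0 members were called higher and 4 lower in siMyT1 against siControl, and 2 higher and 7 lower against siLSD1, in place of 0 and 4 and of 3 and 9.

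In these cells 14 of the 53 guidance genes passed the test in at least 1 comparison. They were 4 of 13 semaphorins, 4 of 10 plexins and neuropilins, 2 of 5 netrin genes and 1 in each other family. The families differ in size and signal, and all 9 Eph receptors lay below 0.196 units. The share of all genes passing in at least 1 comparison was not counted, so the number of 14, and those by family here and below, have no background. Of all 18193 genes, 1348 passed in siMyT1 and 1619 in siLSD1 against siControl, and 3423 between the knockdowns. After siMyT1, 4 members fell and 0 rose, while 3 members were higher and 9 lower at an unadjusted p under 0.05, beside 2560 and 1157 of all 18193 genes. Over all genes, 2.29% were called lower and 5.12% higher in that comparison. The members that fell were Plxnd1, Celsr3, Sema4d and Epha4. After siLSD1, 6 members rose and 1 fell, where 3.97% of all genes were called higher and 4.93% lower. The members that rose were Unc5b, Plxna1, Sema4d, Sema6d, Celsr3 and Unc5c, and Sema4f fell. Set directly against each other, the knockdowns differed in 12 members: 9 had lower levels in siMyT1 (5.58% of all genes) and 3 higher levels (13.2%). Arrays of siMyT1 and siControl did not overlap for 4 members higher and 8 lower in siMyT1, beside 16.5% and 7.55% of all genes. For siLSD1 and siControl it was 8 members higher and 10 lower, beside 10.7% and 16.1%, and for siMyT1 and siLSD1 7 higher and 11 lower, beside 23.3% and 9.7%. The median log2 difference of the 53 members was -0.05 in siMyT1 and 0.02 in siLSD1 against siControl and -0.03 between the knockdowns, beside 0.05, -0.03 and 0.09 over all genes.

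The share of members that passed was thus above the background for falls in siMyT1 (7.55% of members), rises in siLSD1 (11.3%) and deficits of siMyT1 against siLSD1 (17%), and below it in the opposite directions. The 6 rises in siLSD1 became 2 without siControl replicate 1 and 3 with no intensity trend or with the mean of all probe sets. With that mean, Nrp1 and Nrp2 were called lower in siLSD1 beside Sema4f. With the filter on dim genes, Efna3, Nrp1, Nrp2 and Slit2 were. By arrays that did not overlap, falls in siLSD1 (10 of 53 members) were above the background as well (16.1% of all genes). No test was made of the list as a whole. Scaling of the arrays changes these backgrounds. After quantile normalization the shares of all genes called higher and lower were 7.52% and 6% in siMyT1 and 7.83% and 7.57% in siLSD1, with 0 members higher and 9 lower in siMyT1 and 7 higher and 3 lower in siLSD1. Between the knockdowns 70.3% of all calls were higher in siMyT1, against 55.6% after quantile normalization and 42.4% after median centring, and median centring moved the median of all genes in that comparison from 0.09 to -0.04. The members' split there was 3 higher and 9 lower, 3 and 10 after quantile normalization, and 1 and 11 after median centring. Markers of the sympathetic lineage changed as well. Of 10 measured, 4 fell in siMyT1 (Phox2a, Hand2, Chga and Chgb), which is 40% beside 2.29% of all genes. In siLSD1 4 rose (Phox2a, Gata2, Th and Tubb3), 40% beside 3.97%, and 1 fell, 10% beside 4.93%. The marker that fell in siLSD1 was Hand2, which thus fell in both knockdowns (-0.46 in siMyT1 and -0.38 in siLSD1). The sum of these markers per array, in which the brightest, Hand2 and Chgb, weigh most, was 191 to 207 units in siControl, 151 to 162 in siMyT1 and 209 to 228 in siLSD1. In RNA of whole cultures, fewer cells of a type and less RNA per cell cannot be told apart, and the part of these markers in the results was not tested. Both comparisons with siControl use the same 3 control arrays.

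**Figure D1:**
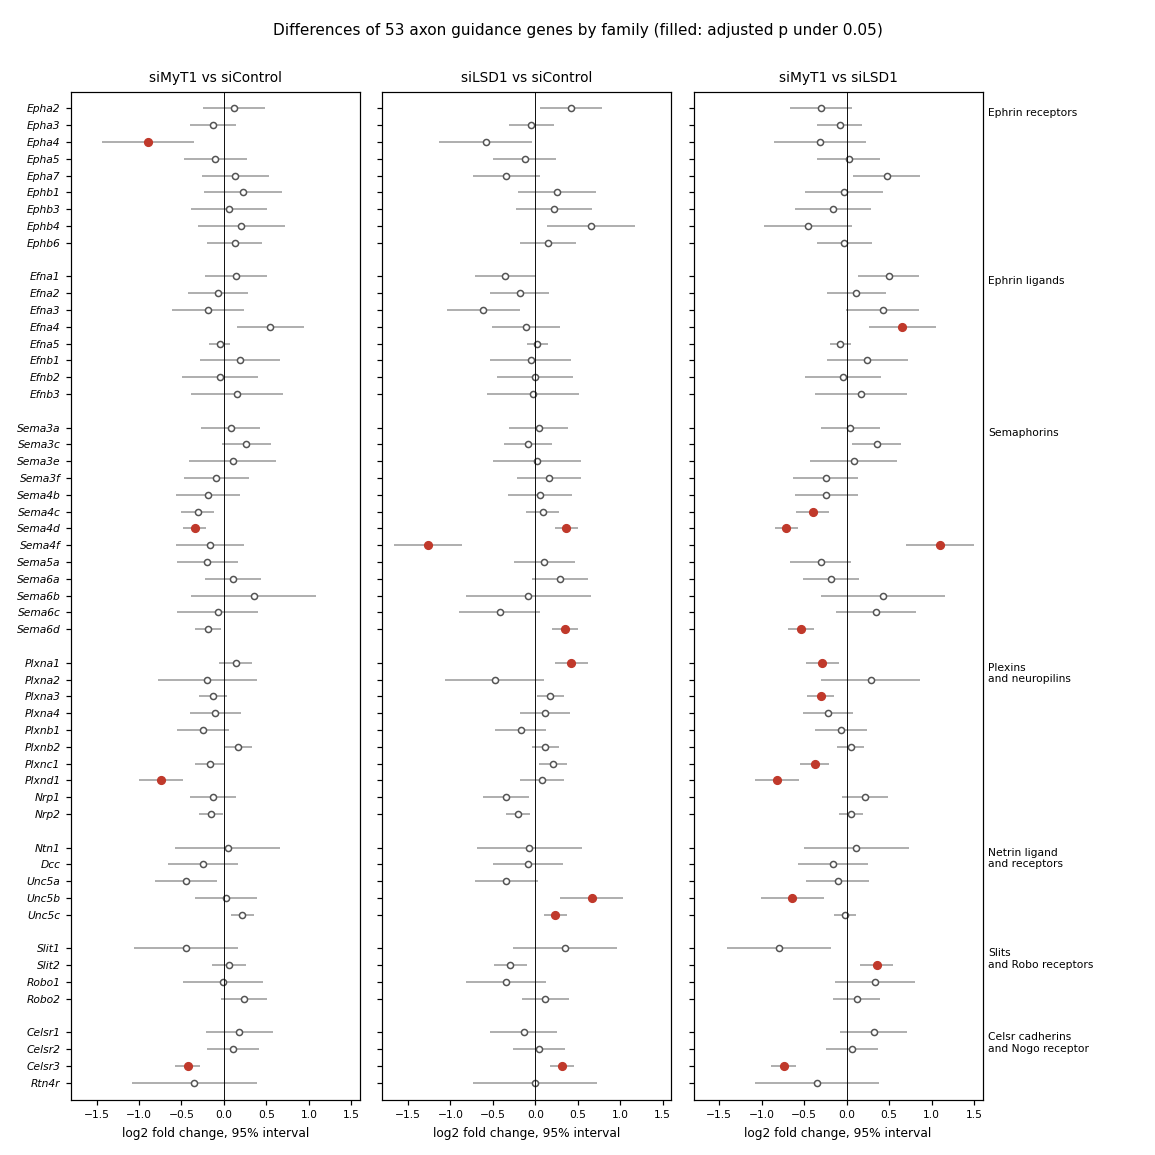
Log2 differences of the 53 measured axon guidance genes, 1 row per gene grouped by family, in siMyT1 and siLSD1 against siControl and in siMyT1 against siLSD1. Points are limma estimates over 3 arrays per group, lines are 95% intervals, and filled points have an adjusted p under 0.05: 4 in the left, 7 in the middle and 12 in the right panel.

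Celsr3, Plxnd1, Unc5b and Sema4f, which passed against siControl, are shown by the 250 bases before their start site, to place the regulated genes in the genome. They were picked after the values were seen. Sequences are from RefSeq on the mouse build GRCm38.p6, written 5′ to 3′ along the gene's own strand, and capitals mark AAGTT, the core element bound by Myt1 family zinc fingers, or its reverse complement AACTT. Celsr3 lies at chr9:108825795-108826044 (plus strand), Plxnd1 at chr6:115995006-115995255 (minus), Unc5b at chr10:60831582-60831831 (minus) and Sema4f at chr6:82939770-82940019 (minus).
Celsr3: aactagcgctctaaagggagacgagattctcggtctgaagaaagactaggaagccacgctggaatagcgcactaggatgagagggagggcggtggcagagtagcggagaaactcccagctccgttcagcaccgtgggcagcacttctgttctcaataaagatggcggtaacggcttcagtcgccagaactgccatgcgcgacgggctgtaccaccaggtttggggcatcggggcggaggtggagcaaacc
Plxnd1: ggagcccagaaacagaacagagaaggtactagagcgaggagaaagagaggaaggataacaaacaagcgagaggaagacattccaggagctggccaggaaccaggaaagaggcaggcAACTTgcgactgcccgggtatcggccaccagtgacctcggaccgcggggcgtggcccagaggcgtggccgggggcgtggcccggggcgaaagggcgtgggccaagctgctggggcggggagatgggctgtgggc
Unc5b: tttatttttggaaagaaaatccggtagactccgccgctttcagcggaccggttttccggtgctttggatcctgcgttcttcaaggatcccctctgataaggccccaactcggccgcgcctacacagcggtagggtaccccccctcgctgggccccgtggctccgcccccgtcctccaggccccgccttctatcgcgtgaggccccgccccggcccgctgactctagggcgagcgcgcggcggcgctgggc
Sema4f: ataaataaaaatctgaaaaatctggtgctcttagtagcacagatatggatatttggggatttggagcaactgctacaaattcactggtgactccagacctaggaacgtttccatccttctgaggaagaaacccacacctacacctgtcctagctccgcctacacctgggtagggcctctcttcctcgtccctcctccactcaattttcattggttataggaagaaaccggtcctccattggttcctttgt
Plxnd1, the member with the largest fall among those well above the pseudocount in siMyT1, holds the element once, beginning 134 bases before the start site on the opposite strand. The other three windows do not hold these letters. Across RefSeq, 35.3% of 32851 such windows held the element on either strand, against 26.3% of 57 windows of the 44 members that matched by symbol and 29.4% of 17 windows of the 13 called members that matched. A match of 5 letters describes the sequence and is no evidence of binding. Efnb3, Sema3f, Sema6a, Plxna1, Plxna4, Ntn1, Dcc, Slit1 and Celsr1 had no match by symbol.

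Among the ephrin receptors, all 9 measured genes had means below 0.196 units, from 0.0288 to 0.153, so their values carry little information on fold changes. Epha4, a receptor that binds both ephrin classes and repels axons at the midline, measured 0.308, 0.259 and 0.242 in siControl, 0.0263, 0.0712 and 0.0665 in siMyT1 and 0.0435, 0.319 and 0.0448 in siLSD1. The siMyT1 arrays were all below the control arrays, whereas 1 siLSD1 array was above them and the other two were below. Epha4 passed narrowly in siMyT1 (log2 difference -0.90, SE 0.25, adjusted p = 0.0485). The call ended when any of the 6 arrays compared was left out (adjusted p from 0.0979 to 0.139), and the mean over its 5 probe sets differed by -0.12 (adjusted p = 0.672). Its 4 other probe sets were dimmer still and none was called in a fit over all probe sets, where the brightest missed as well (adjusted p = 0.0924). Ephb4, the receptor of ephrin-B2, averaged 0.0690 ± 0.025 in siControl and 0.238 ± 0.14 in siLSD1 (SD, n = 3), with an interval of the log2 difference from 0.14 to 1.17 and an adjusted p of 0.118 (0.0436 after median centring). Beside the brightest probe set of Epha5, which did not pass, a dimmer one was higher in siMyT1 than in siControl (0.47, SE 0.12, adjusted p = 0.045 over all probe sets), a feature singled out after its values were seen.

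The 8 ephrin ligands all had means above 0.196 units, and 1 of them passed. Efna4, a lipid-anchored ephrin, measured 0.251, 0.341 and 0.234 in siControl, 0.439, 0.442 and 0.599 in siMyT1 and 0.297, 0.212 and 0.212 in siLSD1. All siMyT1 arrays lay above those of both other groups. The difference passed against siLSD1 (log2 difference 0.66, SE 0.18, adjusted p = 0.0238) and not against siControl (0.55, adjusted p = 0.097). It did not pass after median centring (adjusted p = 0.0544), nor without siMyT1 replicate 3 or siLSD1 replicate 2 or 3 (adjusted p from 0.0858 to 0.0954). Efna5, a repellent ephrin of topographic maps and a ligand of Epha4, measured 18.8, 18.3 and 17.9 units in siControl, 17.4, 17.4 and 18.4 in siMyT1 and 19.7, 18.0 and 18.3 in siLSD1. Its groups overlapped throughout, and the 95% intervals of its log2 difference ran from -0.17 to 0.07 in siMyT1 and from -0.10 to 0.15 in siLSD1. Efna3 lay lower in all siLSD1 arrays (0.243, 0.342 and 0.365) than in the control arrays (0.501, 0.557 and 0.703), with a log2 difference of -0.61 that missed the threshold (adjusted p = 0.078). With the filter on dim genes it passed (adjusted p = 0.0363). Efna1 was likewise below control in each siLSD1 array, at 0.343 ± 0.036 against 0.493 ± 0.053 (SD, n = 3; adjusted p = 0.253). Its siMyT1 arrays lay above the siLSD1 arrays, a difference that missed (0.49, SE 0.17, adjusted p = 0.0567). That difference passed with a pseudocount of 100 (adjusted p = 0.0298) and the filter on dim genes (0.0445). It also passed with the mean of both probe sets (0.0241) and no intensity trend (0.00825). The 3 ephrin-B ligands overlapped between all groups, with log2 differences from -0.06 to 0.19 against siControl.

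Of 13 semaphorins, 4 passed in at least 1 comparison. Sema4d, a membrane semaphorin that collapses growth cones through Plxnb1, measured 17.5, 18.4 and 16.9 units in siControl, 13.0, 14.1 and 14.5 in siMyT1 and 23.4, 21.6 and 23.3 in siLSD1. The 3 groups did not overlap, with siMyT1 lowest and siLSD1 highest. Sema4d fell in siMyT1 (log2 difference -0.34, SE 0.06, adjusted p = 0.00624) and rose in siLSD1 (0.37, SE 0.06, adjusted p = 0.00242), and the knockdowns differed by -0.71 (SE 0.06, adjusted p = 9.53e-06). A second probe set gave 3.56, 2.86 and 5.02 units as means of siControl, siMyT1 and siLSD1 and differed by -0.77 between the knockdowns (adjusted p = 0.00194 over all probe sets). Its difference from control was 0.49 in siLSD1 (adjusted p = 0.0435) and -0.28 in siMyT1 (adjusted p = 0.33). Averaged over all 3 probe sets, 1 of them near 0.2 units, neither difference from control passed (adjusted p = 0.369 and 0.0868).

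Sema4f, a membrane semaphorin of the nervous system, fell after siLSD1. Its control arrays measured 0.564, 0.797 and 0.642 units, the siMyT1 arrays 0.549, 0.477 and 0.697 and the siLSD1 arrays 0.165, 0.149 and 0.171. All siLSD1 arrays were below every other array, and siMyT1 overlapped siControl. The log2 difference was -1.26 in siLSD1 (SE 0.18, adjusted p = 0.000684) and -0.17 in siMyT1 (adjusted p = 0.693), and siMyT1 exceeded siLSD1 by 1.10 (SE 0.18, adjusted p = 0.00104). Since siLSD1 levels are below the pseudocount, the difference from control was -1.99 with a pseudocount of 1 and -0.72 with 100, in place of 32 on the scaled values, and passed with both. A second probe set of Sema4f averaged 0.359 in siControl, 0.397 in siMyT1 and 0.148 in siLSD1. It passed between the knockdowns (0.80, adjusted p = 0.018) and narrowly missed against control (-0.70, adjusted p = 0.0565).

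Sema6d, a membrane ligand of Plxna1, rose after siLSD1. It measured 9.26, 10.2 and 9.25 units in siControl, 7.74, 8.24 and 9.19 in siMyT1 and 12.7, 12.0 and 12.1 in siLSD1. No siLSD1 array overlapped the other groups, and the siMyT1 arrays lay just below control. The log2 difference was 0.35 in siLSD1 (SE 0.07, adjusted p = 0.0077), -0.19 in siMyT1 (adjusted p = 0.152) and -0.54 between the knockdowns (SE 0.07, adjusted p = 0.000223). After quantile normalization the siMyT1 difference passed as well (-0.22, adjusted p = 0.0136). The mean over its 4 probe sets did not pass (0.03, adjusted p = 0.951, in siLSD1 and -0.17, adjusted p = 0.448, between the knockdowns). Of the other probe sets, one at about 2 units differed by 0.19 in siLSD1 and -0.42 between the knockdowns, and the rest were near or below the pseudocount.

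Sema4c, a ligand of Plxnb2, was lower in siMyT1 (5.03, 6.22 and 5.54 units) than in siLSD1 (7.08, 7.19 and 7.98), with control between at 6.33, 7.37 and 7.20. The knockdowns differed by -0.40 (SE 0.09, adjusted p = 0.00747). Against control the siMyT1 arrays did not overlap, but the difference of -0.31 narrowly missed (adjusted p = 0.056). It passed after quantile normalization (adjusted p = 0.00976) and median centring (adjusted p = 0.0297). Among the 9 semaphorins that passed nowhere, Sema3a, Sema3c, Sema3e and Sema5a were below 0.196 units on average. Sema3f, a secreted repellent read through Nrp2 and Plxna3, averaged 3.47 ± 0.63 in siControl, 3.23 ± 0.34 in siMyT1 and 3.97 ± 1.2 in siLSD1 (SD, n = 3). Its intervals against control ran from -0.47 to 0.29 and from -0.22 to 0.54.

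**Figure D2:**
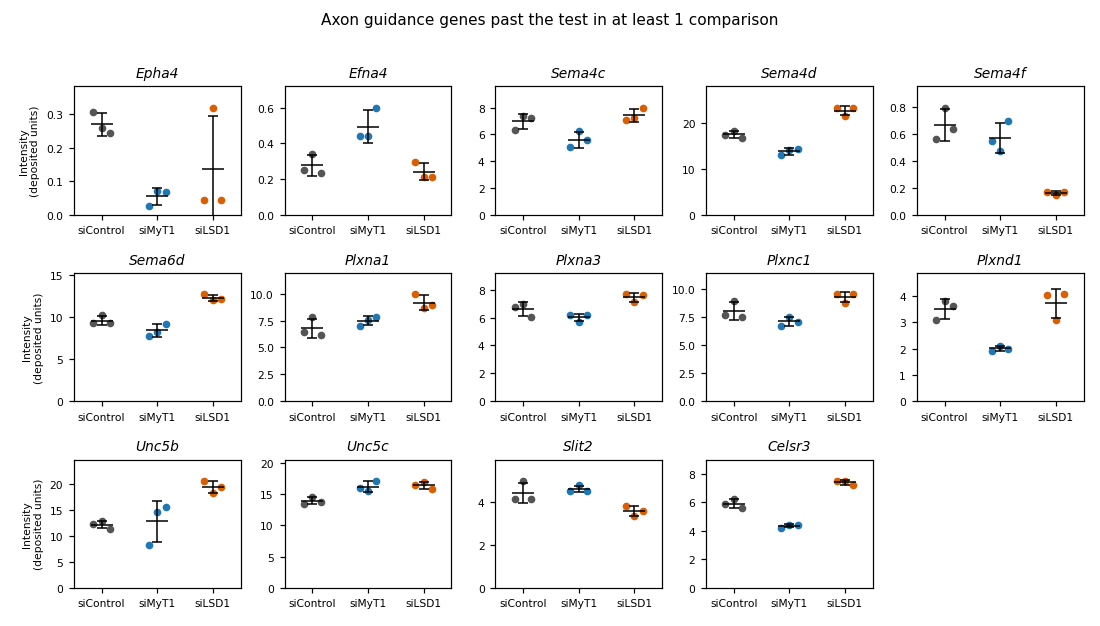
Intensity in deposited units of the 14 axon guidance genes that passed in at least 1 comparison, 1 panel per gene with an axis from 0. Points are the 3 arrays of each group and bars the mean and SD; Sema4d and Celsr3 show siMyT1 below and siLSD1 above control without overlap, and Sema4f is low on the siLSD1 arrays.

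Of 8 plexins, the semaphorin receptors, 4 passed as lower in siMyT1 than in siLSD1, a direction called in 5.58% of all genes. Plxnd1, which binds Sema3e without a neuropilin, measured 3.09, 3.82 and 3.62 units in siControl, 1.93, 2.12 and 1.99 in siMyT1 and 4.04, 3.09 and 4.07 in siLSD1. The siMyT1 arrays were the lowest and closely grouped, and siLSD1 overlapped control. Plxnd1 fell by 0.74 on the log2 scale in siMyT1 (SE 0.12, adjusted p = 0.00251), while siLSD1 differed from control by 0.08 (95% interval -0.18 to 0.34) and the knockdowns by -0.82 (SE 0.12, adjusted p = 0.000389). The array annotation gives it 1 probe set. Its ligand Sema3e stayed below the pseudocount, at 0.118 ± 0.058 in siControl, 0.142 ± 0.073 in siMyT1 and 0.128 ± 0.091 in siLSD1 (SD, n = 3).

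Plxna1, the receptor of Sema6d, rose after siLSD1. It measured 6.42, 7.81 and 6.18 units in siControl, 7.02, 7.55 and 7.84 in siMyT1 and 9.95, 8.66 and 8.91 in siLSD1. All siLSD1 arrays were above all others, and siMyT1 overlapped control. The log2 difference was 0.43 in siLSD1 (SE 0.09, adjusted p = 0.00972) and 0.14 in siMyT1 (adjusted p = 0.449), with -0.29 between the knockdowns (SE 0.09, adjusted p = 0.0414). The call against control ended without siControl replicate 1 (adjusted p = 0.0529) and with no intensity trend (adjusted p = 0.0505). That between the knockdowns ended without any siMyT1 array or siLSD1 replicate 1 or 3 (adjusted p from 0.0638 to 0.149), with the replicate number as a block (adjusted p = 0.067), with no intensity trend (adjusted p = 0.108) and with the mean of both probe sets (adjusted p = 0.145). A second probe set gave 1.06, 1.24 and 1.51 units and differed by 0.46 in siLSD1 (adjusted p = 0.209). In that fit over all probe sets, the brightest missed between the knockdowns (adjusted p = 0.068).

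In the fit used throughout, Plxna3 and Plxnc1 passed between the knockdowns alone. Plxna3, a receptor for secreted semaphorins together with neuropilins, averaged 6.60 ± 0.49 in siControl, 6.02 ± 0.27 in siMyT1 and 7.48 ± 0.32 in siLSD1 (SD, n = 3). The siMyT1 arrays reached 6.18 at most and the siLSD1 arrays began at 7.10, a log2 difference of -0.30 (SE 0.07, adjusted p = 0.0115) that missed without siMyT1 replicate 2 (adjusted p = 0.0511) or siLSD1 replicate 3 (adjusted p = 0.0543). Its other probe set differed by -0.34 (adjusted p = 0.0503). Plxnc1, the receptor of Sema7a, averaged 8.05 ± 0.77 in siControl, 7.13 ± 0.39 in siMyT1 and 9.30 ± 0.42 in siLSD1 (SD, n = 3), with -0.38 between the knockdowns (SE 0.08, adjusted p = 0.00429). A second of its 6 probe sets was called there as well (-0.44, adjusted p = 0.00606), and the mean over all 6 was not (-0.21, adjusted p = 0.172). After quantile normalization Plxnc1 also passed against control, lower in siMyT1 (adjusted p = 0.0124) and higher in siLSD1 (adjusted p = 0.00471). The siLSD1 difference passed after median centring as well (adjusted p = 0.0304). Sema7a, which is not among the 54 genes, averaged 0.314 in siControl and 0.181 in siMyT1 (adjusted p = 0.308).

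The receptors of Sema4d and Sema4c did not pass in any comparison. Plxnb1 averaged 2.06 ± 0.29 in siControl, 1.71 ± 0.27 in siMyT1 and 1.80 ± 0.14 in siLSD1, and Plxnb2 10.8 ± 0.95, 12.1 ± 0.44 and 11.7 ± 0.70 (SD, n = 3). The neuropilins, co-receptors of the secreted semaphorins, did not pass in any comparison. Nrp2 measured 26.6, 30.3 and 28.4 units in siControl, 24.9, 25 and 26.6 in siMyT1 and 24.8, 23.5 and 25.6 in siLSD1. All knockdown arrays were below the lowest control array, the highest siMyT1 array by very little, and neither difference passed (-0.15, adjusted p = 0.182, and -0.20, adjusted p = 0.0663). Both passed after quantile normalization (adjusted p = 0.0168 and 0.00526). By a second probe set, singled out after its values were seen, Nrp2 averaged 10.6, 9.69 and 7.90 units and was lower in siLSD1 (-0.42, SE 0.08, adjusted p = 0.00931 over all probe sets). Nrp1 averaged 9.30 ± 1.1 in siControl, 8.51 ± 1.4 in siMyT1 and 7.29 ± 1.0 in siLSD1 (SD, n = 3) without passing. It was called lower in siLSD1 with the filter on dim genes (adjusted p = 0.0278). The mean of its probe sets was called lower in siLSD1 (adjusted p = 0.0126) and in siMyT1 (adjusted p = 0.0371). A second Nrp1 probe set, singled out in the same way, fell from 7.33 to 5.77 in siMyT1 (-0.34, adjusted p = 0.0462) and to 5.81 in siLSD1 (-0.33, adjusted p = 0.0414).

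Among the netrin receptors, Unc5b and Unc5c rose after siLSD1. Unc5b, a receptor for repulsion from netrin that also acts in vessels, measured 12.3, 13.0 and 11.5 units in siControl, 8.35, 14.6 and 15.7 in siMyT1 and 20.7, 18.4 and 19.6 in siLSD1. Every siLSD1 array was above all others, and the siMyT1 arrays were spread widely, with replicate 1 below control and the other two above. The log2 difference was 0.67 in siLSD1 (SE 0.17, adjusted p = 0.0279) and 0.02 in siMyT1 (95% interval -0.35 to 0.39), with -0.64 between the knockdowns (SE 0.17, adjusted p = 0.0189). Without siMyT1 replicate 1 the knockdowns differed by -0.36 (adjusted p = 0.00678). The rise in siLSD1 missed the threshold when siLSD1 replicate 1 or 3 or any control array was left out (adjusted p from 0.0542 to 0.0878), and the call between the knockdowns when siLSD1 replicate 1 or 3 was (adjusted p = 0.0582 and 0.053). With no intensity trend in the variance both missed (adjusted p = 0.106 and 0.0714). A second probe set gave 7.48, 6.997 and 10.8 units, with differences of 0.53 in siLSD1 (adjusted p = 0.0222) and -0.61 between the knockdowns (adjusted p = 0.0056). These are from the fit over all probe sets, where the brightest missed in siLSD1 (adjusted p = 0.0513) and passed between the knockdowns (adjusted p = 0.0349).

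Unc5c, a repulsive netrin receptor of the same family, measured 13.4, 14.5 and 13.8 units in siControl, 16.0, 15.4 and 17.1 in siMyT1 and 16.4, 17.0 and 15.8 in siLSD1. Both knockdowns lay above control without overlap and did not separate from each other (-0.02, 95% interval -0.15 to 0.11). The difference from control passed in siLSD1 (0.24, SE 0.06, adjusted p = 0.0293) and narrowly missed in siMyT1 (0.22, SE 0.06, adjusted p = 0.0512). The siLSD1 call ended without siControl replicate 1 or 3 or any siLSD1 array (adjusted p from 0.0612 to 0.134) with the replicate number as a block (adjusted p = 0.0754), with the mean of both probe sets (adjusted p = 0.0578) and with no intensity trend (adjusted p = 0.12). Its other probe set, at 7.94, 10.1 and 8.92 units, was called in siMyT1 (0.34, adjusted p = 0.0171) and not in siLSD1 (0.16, adjusted p = 0.229). These values are from the fit over all probe sets, where the brightest missed in siLSD1 as well (adjusted p = 0.0522). Unc5a, the third repulsive receptor of the set, differed the other way, at 3.01, 3.53 and 3.15 in siControl, 1.68, 2.99 and 2.44 in siMyT1 and 2.83, 2.07 and 2.67 in siLSD1. All knockdown arrays were below the lowest control array, but neither difference passed (-0.45, adjusted p = 0.147, and -0.34, adjusted p = 0.284). The siMyT1 difference passed after quantile normalization (adjusted p = 0.0297) and median centring (adjusted p = 0.0446). The ligand Ntn1 stayed below the pseudocount on average (0.164 ± 0.10, 0.169 ± 0.073 and 0.151 ± 0.12; SD, n = 3), and Dcc, the attractive receptor, measured 0.631 ± 0.090, 0.506 ± 0.15 and 0.580 ± 0.046 units in siControl, siMyT1 and siLSD1.

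Slit2, a repellent of midline axons, was higher in siMyT1 than in siLSD1. It measured 4.14, 4.98 and 4.17 units in siControl, 4.52, 4.77 and 4.52 in siMyT1 and 3.80, 3.34 and 3.56 in siLSD1. The siLSD1 arrays were the lowest of all, and siMyT1 overlapped control. The knockdowns differed by 0.35 (SE 0.09, adjusted p = 0.0152), which missed after median centring (0.23, adjusted p = 0.122), with the mean of its 3 probe sets (0.25, adjusted p = 0.307) and without siMyT1 replicate 2 or siLSD1 replicate 2 or 3 (adjusted p from 0.051 to 0.0575). Against control the siLSD1 difference of -0.29 missed (adjusted p = 0.0621), and siMyT1 differed by 0.06. The siLSD1 difference passed after quantile normalization (adjusted p = 0.0202) and with the filter on dim genes (adjusted p = 0.0331). Slit1 averaged 0.394 ± 0.048 in siControl, 0.259 ± 0.18 in siMyT1 and 0.578 ± 0.25 in siLSD1 (SD, n = 3). Its difference between the knockdowns, of the opposite sign to that of Slit2, missed the threshold (-0.79, adjusted p = 0.0718). It passed with the replicate block (adjusted p = 0.047), median centring (0.0348), the filter on dim genes (0.0184) and the mean of both probe sets (0.0379), and its second probe set, singled out after its values were seen, was called (-0.79, SE 0.23, adjusted p = 0.0406). The Robo receptors, through which slits act, were below the pseudocount: Robo1 averaged 0.136, 0.145 and 0.0685 units and Robo2 0.0437, 0.0863 and 0.0643 in siControl, siMyT1 and siLSD1.

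Celsr3, an atypical cadherin needed for the major axon tracts of the forebrain, moved in opposite directions in the knockdowns. It measured 5.87, 6.23 and 5.62 units in siControl, 4.22, 4.39 and 4.42 in siMyT1 and 7.46, 7.49 and 7.20 in siLSD1. The groups were tight and did not overlap. The log2 difference was -0.43 in siMyT1 (SE 0.07, adjusted p = 0.00227), 0.31 in siLSD1 (SE 0.07, adjusted p = 0.0106) and -0.74 between them (SE 0.07, adjusted p = 1.15e-05). Without siControl replicate 1 the rise in siLSD1 fell just short (adjusted p = 0.0511). By the array annotation, Celsr3 has 1 probe set. Its paralogue Celsr2 averaged 0.991 ± 0.093 in siControl, 1.09 ± 0.073 in siMyT1 and 1.03 ± 0.027 in siLSD1 (SD, n = 3), with 95% intervals from -0.19 to 0.42 and from -0.26 to 0.36 against control. Celsr1 was below the pseudocount. Rtn4r, the receptor through which myelin proteins halt axon growth, varied as much within groups as between them, from 0.0833 to 0.465 units over the control arrays alone.

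**Figure D3:**
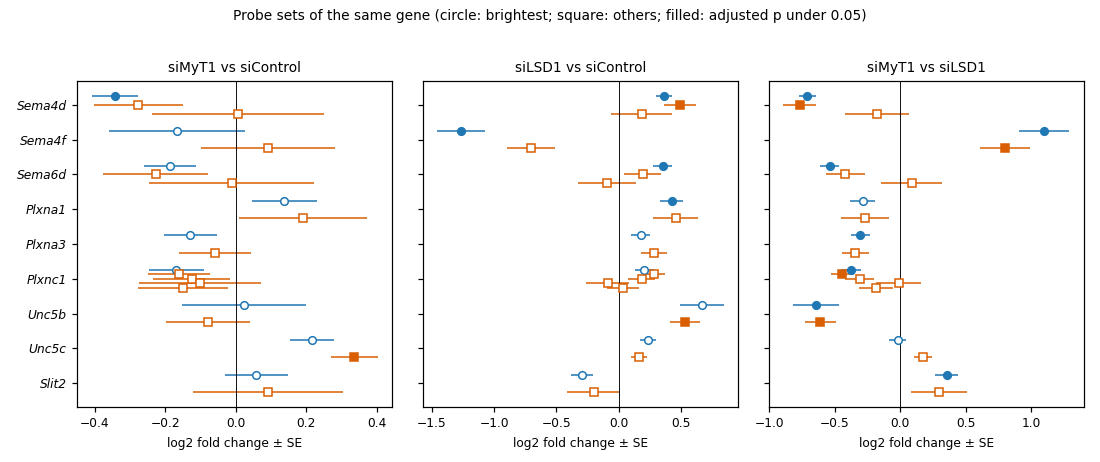
Log2 differences with SE (3 arrays per group) of every probe set with a mean of at least 0.196 units, for the 9 passing genes that have more than 1 such probe set. Circles are the brightest probe set and squares the others, filled where the adjusted p over all probe sets was under 0.05; for siMyT1 against siLSD1 the second probe sets of Sema4d, Sema4f, Plxnc1 and Unc5b are filled on the same side as the first.

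Over all 53 genes, the brightest probe set was chosen by level, and the other probe sets of the called genes offer a separate reading of the same RNA. In siMyT1 against siLSD1, 13 of 16 other probe sets had the sign of the first and 4 were called in the same direction. In siLSD1 against siControl it was 7 of 9 with 2 called, and in siMyT1 against siControl 3 of 6 with 0 called, 4 of these 6 belonging to Epha4. None was called in the opposite direction in a fit over all probe sets.

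The partners of these receptors were read from a list of 84 further guidance genes, of which 82 were measured. In siMyT1 against siControl 6 rose and 2 fell, in siLSD1 9 rose and 1 fell, and between the knockdowns 9 were higher and 11 lower in siMyT1. These are 7.32% and 2.44%, 11% and 1.22%, and 11% and 13.4% of the 82, beside 5.12% and 2.29%, 3.97% and 4.93%, and 13.2% and 5.58% of all genes, so that the falls in siMyT1 and the higher levels between the knockdowns were near the background. Of 20 other members of the same ligand and receptor families, 1 passed, as lower in siMyT1 than in siLSD1. This is 5% of the 20, near the 5.58% of all genes called in that direction. It was Ntng1, a lipid-anchored netrin relative (-0.70, SE 0.22, adjusted p = 0.0406), at 0.199 ± 0.098 units in siMyT1 and 0.432 ± 0.038 in siLSD1 (SD, n = 3). That call ended without siMyT1 replicate 1 or 2 or any siLSD1 array (adjusted p from 0.0742 to 0.123), and with the mean of its probe sets (adjusted p = 0.11).

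Among 20 co-receptors and other guidance cues, 3 rose and 0 fell in siLSD1 (15% and 0%, beside 3.97% and 4.93% of all genes), with 4 higher and 4 lower at an unadjusted p under 0.05, where all 18193 genes gave 1578 and 2268. L1cam, an adhesion molecule that takes part in the receptor for Sema3a, rose from 41.8 ± 1.9 to 62.2 ± 4.4 units (log2 difference 0.57, SE 0.08, adjusted p = 0.000372), against 40.3 ± 3.5 in siMyT1. Neo1, a netrin and RGM receptor related to Dcc, rose from 15.2 ± 0.17 to 24.0 ± 0.60 (0.65, SE 0.06, adjusted p = 2.74e-05), though the mean of its probe sets did not pass (0.28, adjusted p = 0.136). Ngfr, the neurotrophin receptor that signals with the Nogo receptor, rose from 12.3 ± 0.95 to 24.9 ± 3.1 (0.998, SE 0.10, adjusted p = 3.75e-05). In siMyT1 2 of the 20 rose and 1 fell (10% and 5%, beside 5.12% and 2.29% of all genes). The rises were those of Flrt3, a membrane protein that binds Unc5 receptors, and Wnt5a, a secreted cue that repels axons through Ryk. Flrt3 rose from 0.221 ± 0.070 to 0.610 ± 0.056 (0.96, SE 0.19, adjusted p = 0.00802) and Wnt5a from 0.788 ± 0.039 to 1.40 ± 0.16 (0.69, SE 0.17, adjusted p = 0.0312), the latter call being lost without any control array or siMyT1 replicate 2 or 3 (adjusted p from 0.0798 to 0.103). Between the knockdowns 2 of the 20 were higher and 5 lower in siMyT1 (10% and 25%, beside 13.2% and 5.58% of all genes). The share of higher levels was thus not above the background. Wnt5a was higher in siMyT1 than in siLSD1 by 1.23 (SE 0.17, adjusted p = 0.000339). Dscaml1, an adhesion molecule of the Dscam family, was lower in siMyT1 than in siLSD1 (-0.46, adjusted p = 0.00765), a call lost when its probe sets were averaged (adjusted p = 0.102). Outside the rule for named genes, the 1 gene of this list that fell in siMyT1 was Lingo1, a partner of the Nogo receptor (-0.55, SE 0.11, adjusted p = 0.00808).

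Of 42 measured signalling genes below the receptors, 4 rose and 1 fell in siMyT1, 6 rose and 1 fell in siLSD1, and 7 were higher and 5 lower between the knockdowns. In percent these are 9.52 and 2.38, 14.3 and 2.38, and 16.7 and 11.9, beside 5.12 and 2.29, 3.97 and 4.93, and 13.2 and 5.58 of all genes, and the fall in siMyT1 and the higher levels between the knockdowns were near the background. Ablim1, an actin-binding protein of the netrin pathway, measured 4.43, 5.33 and 4.47 units in siControl, 5.64, 5.97 and 5.94 in siMyT1 and 9.33, 8.52 and 8.60 in siLSD1. Its groups did not overlap, and it rose by 0.87 in siLSD1 (SE 0.08, adjusted p = 2.1e-05) and 0.30 in siMyT1 (SE 0.08, adjusted p = 0.043). The siMyT1 call was lost in 10 of 16 alternatives, the replicate block (adjusted p = 0.0808) and median centring (adjusted p = 0.102) among them. Vav3, a signalling protein activated by Eph receptors, rose in siLSD1 from 3.26 ± 0.27 to 5.55 ± 0.24 (0.74, adjusted p = 0.00017) and reached 4.27 ± 0.37 in siMyT1 (0.37, adjusted p = 0.0244), where 9 of 16 alternatives lost the call, the replicate block (adjusted p = 0.0514) and median centring (adjusted p = 0.068) included. Mical1, an oxidase that disassembles actin below plexins, rose in siMyT1 from 3.41 ± 0.22 to 5.01 ± 0.29 (0.53, SE 0.08, adjusted p = 0.00215), and exceeded siLSD1 by 0.56 (adjusted p = 0.000494). Crmp1, a collapsin response mediator, rose in siLSD1 (0.35, adjusted p = 0.00584), and the adaptor Nck2 fell there (-0.33, adjusted p = 0.00451), which median centring (adjusted p = 0.0894) and the mean of its probe sets (-0.20, adjusted p = 0.239) ended. Dpysl2, another collapsin response mediator, was lower in siMyT1 than in siLSD1 (-0.30, adjusted p = 0.00581), a difference of -0.04 when its probe sets were averaged (adjusted p = 0.864). Outside the rule, the remaining rise in siMyT1 was that of Vasp (0.28, adjusted p = 0.0145) and the 1 fall that of Enah (-0.29, adjusted p = 0.04), both regulators of actin filaments.

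**Figure D4:**
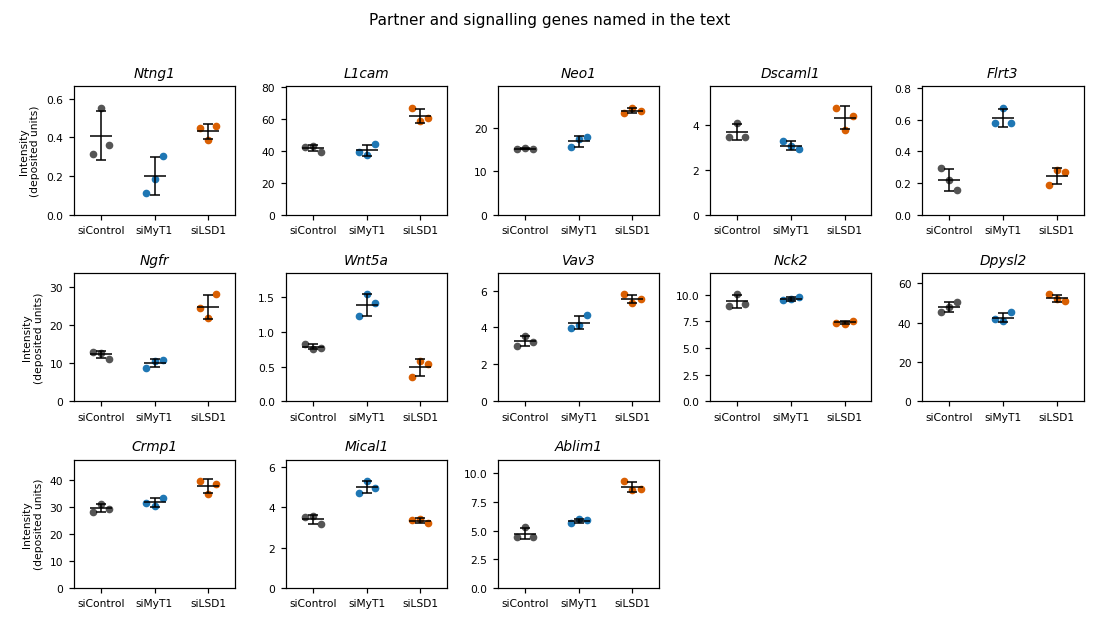
Intensity in deposited units of 13 partner and signalling genes chosen by the rule for named genes, 1 panel per gene with an axis from 0. Points are the 3 arrays of each group and bars the mean and SD; Ngfr, L1cam, Neo1 and Ablim1 are highest on the siLSD1 arrays, and Flrt3, Wnt5a and Mical1 on the siMyT1 arrays.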

How the data were processed

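Total RNA of 9 Neuro2a samples was labelled with biotin and hybridised to 1-colour arrays, per the labels' protocols. The authors deposited 1 linear intensity for each of 45101 probe sets per array; how it was summarised and scaled is not given in the sources used. Array medians lay between 0.302 and 0.424 units. Of 35890 probe sets in the platform annotation, 34945 non-control ones had 1 symbol, giving 18193 genes, each read from its brightest probe set. Intensities were multiplied by 1 constant, 163.6, which sets the mean trimmed mean of the arrays to 500, and analysed as log2(value + 32), which is 0.196 deposited units, with no further normalization. Limma 3.58.1 in R 4.3.3 fitted group means over all 9 arrays with an intensity trend, two-sided, with Benjamini-Hochberg adjustment over all genes and a threshold of 0.05. An exact permutation test of 3 arrays against 3 cannot go below p = 0.1. On simulated arrays of 18193 genes the fit recovered 82% of 1.5-fold and 96% of 2-fold changes in siMyT1 against siControl, and 83% and 95% in siLSD1 against siControl. The changed genes were drawn from those above the median level, with normally distributed noise, and shifted on the log2 scale of the fit. These rates therefore do not cover dim genes or changes smaller than 1.5-fold. Alternatives were quantile normalization, median centring, other pseudocounts, a filter on dim genes, other probe set rules, no trend, the compared groups alone, a replicate block and leaving out each array. Members and lists were chosen with earlier results of these data known. Every member passing in at least 1 comparison is named, with partners of those members, and per partner list at most 6 passing genes with the smallest adjusted p.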

Additional observations from a re-analysis of the deposited data

How the results depend on the processing

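Of the 23 calls among guidance genes, 8 held under all 16 alternatives run for each: those of Celsr3 and Plxnd1 in siMyT1 against siControl and siMyT1 against siLSD1, both of Sema4f, and those of Sema4c and Sema4d between the knockdowns. The other 15 missed the threshold under at least 1 alternative, and 0 changed sign. Celsr3, Plxnd1 and Sema4c have 1 probe set each, so the other probe set rules could not change their log2 differences. The calls of Sema4d against siControl, Sema6d and Plxnc1 were lost only with the mean of all probe sets. The number of calls held therefore depends in part on how many probe sets a gene has. Of 25 calls among the named partner genes, 13 held throughout and 0 changed sign. The cause of the changes below was not tested.

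Members higher in siMyT1 than in siControl numbered 1, in place of 0, with the filter on dim genes and with the mean of all probe sets, Unc5c in both cases. Members lower there numbered 9 in place of 4 after quantile normalization. In siLSD1 against siControl, members higher numbered 3 in place of 6 with the mean of all probe sets and with no intensity trend, and members lower 3 in place of 1 after quantile normalization, 5 with the filter on dim genes and 3 with the mean of all probe sets. In siMyT1 against siLSD1, members higher numbered 1 in place of 3 after median centring. Leaving out 1 array gave 0 to 1 higher and 3 to 4 lower members in siMyT1, 2 to 6 higher and 1 to 2 lower in siLSD1, the lowest without siControl replicate 1, and 1 to 3 higher and 7 to 9 lower between the knockdowns.

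For the 82 partner genes, those higher in siMyT1 against siControl numbered 3 in place of 6 after median centring and with no intensity trend. Those lower numbered 6 in place of 2 after quantile normalization and 1 with the mean of all probe sets, with no intensity trend, with the replicate block and in the compared groups alone. In siLSD1 those lower numbered 6 in place of 1 after quantile normalization, 0 after median centring and 4 with the filter on dim genes. Between the knockdowns, those higher numbered 3 in place of 9 after median centring and 4 with no intensity trend, and those lower 17 in place of 11 after quantile normalization and after median centring and 6 with the mean of all probe sets. Leaving out 1 array gave 2 to 6 higher and 1 to 2 lower in siMyT1, 6 to 9 and 1 to 2 in siLSD1, and 4 to 9 and 8 to 10 between the knockdowns.

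Same-numbered arrays of different groups did not deviate together (correlations from -0.026 to 0.038 over 9 pairs), so no shared replicate effect was seen. The labels do not say whether same-numbered samples were prepared together, and these correlations cannot decide it. With the replicate block, the members called were 0 higher and 4 lower in siMyT1, 5 and 1 in siLSD1, and 3 and 9 between the knockdowns. The 17 members below the pseudocount give little information on change at this signal.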
